A study of Homo sapiens with 3 samples.

Results

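The levels of 7 receptor and adaptor genes of 2 growth factor systems were followed in CAMA-1 breast cancer spheroids under ribociclib: the fibroblast growth factor receptors FGFR1, FGFR2, FGFR3 and FGFR4, their docking adaptor FRS2, the receptor kinase RET and the RET co-receptor GFRA1. They were chosen by symbol, as receptor genes linked with resistance to CDK4/6 inhibitors and endocrine drugs, and the rule used no measured value. Earlier results of these data were known when they were chosen. All 7 of the 7 symbols had a row among the 22499 named rows of the count tables. CAMA-1 is an established estrogen receptor-positive breast cancer line. Sensitive cells are Venus-labelled CAMA-1 and resistant cells are mCherry-labelled CAMA-1_ribociclib_resistant, a single line made from CAMA-1 by long culture in ribociclib, so resistance cannot be told apart from other differences between the 2 cultures. Each spheroid was seeded with 2000 cells, either sensitive cells alone, resistant cells alone, or a coculture with 50% of each. Each of the 3 kinds received 1 µM ribociclib, a CDK4/6 inhibitor that the labels list together with DMSO, for 11 days, with no untreated spheroids among the samples, and gave 1 library of single-cell RNA-seq. The coculture holds both lines, so there were 4 populations, and cells grown alone are also called monocultures.

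Fibroblast growth factors are secreted ligands that pair and activate FGFR kinases at the cell surface, usually together with heparan sulfate chains or klotho proteins. The activated receptors phosphorylate FRS2, which recruits GRB2, SOS and PTPN11 and so feeds the RAS-MAPK and PI3K-AKT relays. RET needs a second protein to sense its ligands: GDNF and its relatives bind a GFRA protein on the membrane, and the complex then activates RET. In estrogen receptor-positive breast tumours FGFR1 is often amplified, FGFR4 is an expressed luminal receptor, and both RET and GFRA1 are known as estrogen-responsive genes.

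The deposited annotation kept 3329 cells of sensitive monoculture, 2059 sensitive and 6292 resistant cells of the coculture, and 7557 cells of resistant monoculture, with medians of 27622 to 35443 unique molecular identifiers (UMIs, counted RNA molecules) per cell. Of these cells 2963, 1138, 3125 and 3781 had been called G1, in that order. The 8 luminal markers searched (ESR1, GATA3, FOXA1, KRT8, KRT18, KRT19, EPCAM and XBP1) all had UMIs in each population and summed to 8295 to 10270 CPM, where CPM is the UMIs of a gene scaled to a total of 1000000. Basal markers summed to 0.303 to 4.57 CPM, fibroblast markers to 2.46 to 3.63, endothelial markers to 0.070 to 0.301 and immune markers to 0.426 to 1.69, with the basal sum highest and the immune sum lowest in sensitive cells alone, where 3 of the 4 fibroblast markers had no UMI. Between pairs of libraries, 7 to 17 annotated cell barcodes were shared, at most 0.240% of the smaller library. The sensitive monoculture stood apart in cell quality, since 51.9% of its deposited barcodes had 30% or more of their UMIs on mitochondrial genes, against 30.5% in the coculture and 19% in resistant monoculture. With cells under 20% mitochondrial UMIs alone, the counts of members past the threshold used below were the same in all 4 comparisons of populations. All annotated coculture cells had a UMI of exactly 1 of the 2 labels, while neither label had a UMI in 1071 cells of sensitive monoculture (of 3329) and in 2050 of resistant monoculture (of 7557). With cells of 2 or more label UMIs in each population the counts of members past the threshold were the same, except for 4 in place of 5 between the monocultures. Coculture barcodes with 2 or more mVenus UMIs held 186 mCherry UMIs, which would be met by 7.57% of resistant-cell RNA. Those barcodes with mCherry UMIs are outside the annotation, and free RNA and doublets cannot be told apart in them, so values corrected by 7.57% are given only as an alternative.

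With 1 library per condition there was no test between populations. UMIs were summed over the cells of a population and expressed as CPM, with exact 95% Poisson intervals, and a ratio of CPM carries an exact binomial interval. All intervals cover counting error only, and not the spread between cultures. A gene was called past the threshold where CPM + 1 differed by at least 1.5-fold and the populations held at least 50 UMIs together. Since 1 CPM was added, genes near 1 CPM pass only at larger ratios. All 7 genes passed the UMI minimum in each of the 4 comparisons between populations. Counts from the 3′ end of transcripts do not separate splice forms of the receptors.

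FGFR4, a receptor expressed in luminal cells, rested on 39830 UMIs over all cells, and it was higher in resistant than in sensitive cells in both settings. Its level was 48.0 CPM (46.6 to 49.4) in sensitive cells alone, 28.6 (27.4 to 29.9) in cocultured sensitive cells, 66.2 (65.0 to 67.3) in cocultured resistant cells and 73.7 (72.7 to 74.8) in resistant cells alone. The intervals of the 4 populations do not overlap, and cocultured sensitive cells held the lowest level. Sensitive cells in coculture had 0.597 times the monoculture level (0.566 to 0.629, log2 ratio -0.72), while resistant cells in coculture had 0.897 times theirs (0.878 to 0.917). Within the coculture library, resistant cells had 2.31 times the FGFR4 of sensitive cells (2.21 to 2.42, log2 ratio 1.18), above 99.7% of all genes compared. With 7.57% of resistant-cell RNA taken off, the level of sensitive coculture was 25.6 CPM. Between the monocultures the ratio was 1.54 (1.49 to 1.59, log2 ratio 0.61), just past the threshold, and it missed the threshold at log2 0.54 when mitochondrial genes were left out of the totals.

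**Figure D1:**
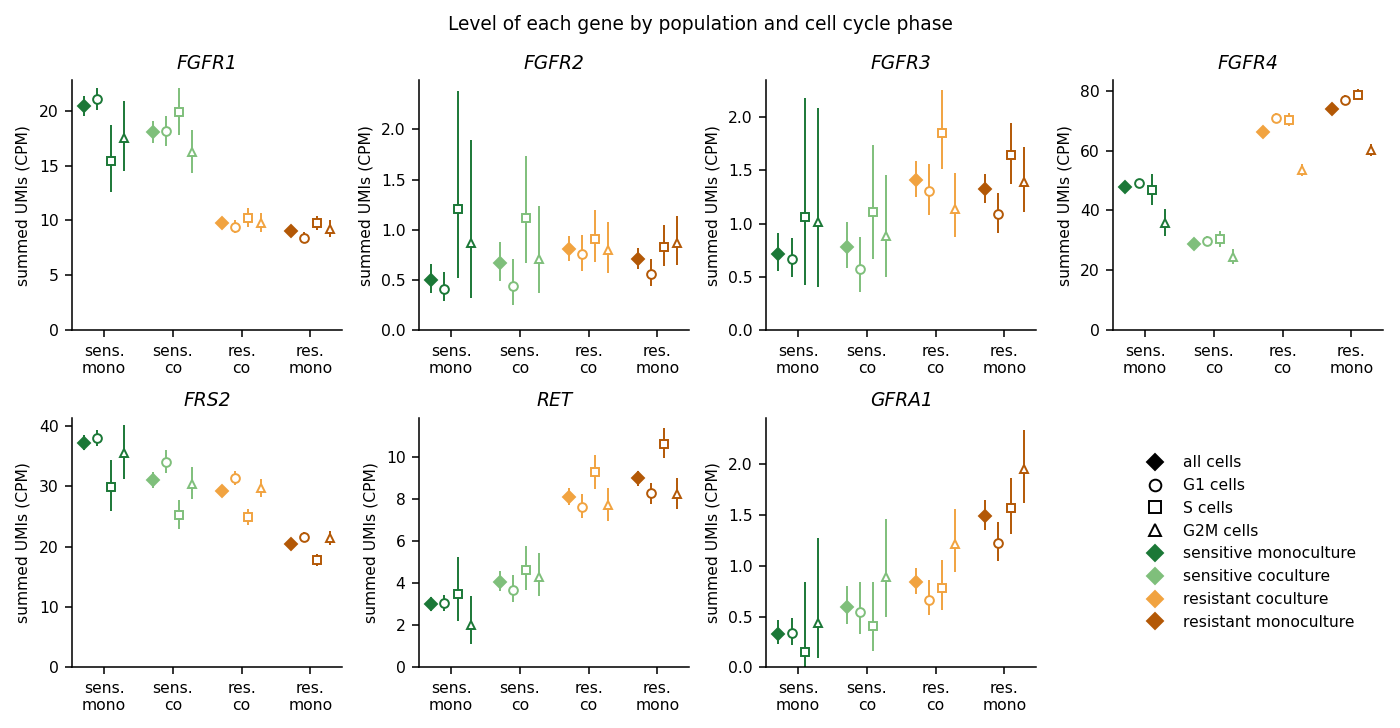
Level of each gene in CPM (summed UMIs, scaled, vertical axis from 0) in the 4 populations, for all cells (filled diamonds) and for G1, S and G2M cells (open symbols). Bars are exact 95% Poisson intervals from 1 library each. FGFR4 and RET are higher and FGFR1 lower in both resistant populations, and FRS2 is lowest in resistant cells alone, at 20.4 CPM.

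FGFR1, the receptor most often amplified in luminal tumours, was lower in resistant than in sensitive cells. Its level was 20.4 CPM (19.5 to 21.3) in sensitive cells alone, 18.1 (17.1 to 19.1) in cocultured sensitive cells, 9.73 (9.30 to 10.2) in cocultured resistant cells and 8.99 (8.63 to 9.35) in resistant cells alone. Both sensitive populations lay above both resistant ones, whose intervals overlap. The ratio of resistant to sensitive cells was 0.440 (0.415 to 0.468, log2 ratio -1.10) between the monocultures and 0.538 (0.501 to 0.578, log2 ratio -0.83) within the coculture, and both passed the threshold. Coculture over monoculture gave 0.886 (0.825 to 0.951) in sensitive and 1.08 (1.02 to 1.15) in resistant cells, and each came close to 1 under another setting. The sensitive log2 ratio went from -0.17 to 0.01 when the 3 phases were given equal weight, and the resistant ratio was 1.03 (0.971 to 1.09) under TMM scaling, a scaling factor from genes that differ little.

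FGFR2 and FGFR3, the receptors of many epithelial and skeletal tissues, rested on few UMIs. FGFR2 had 0.499 CPM in sensitive cells alone, 0.663 in cocultured sensitive cells, 0.806 in cocultured resistant cells and 0.709 in resistant cells alone, from 448 UMIs in all. The intervals of neighbours in the order of these levels overlap, and the ratio between the monocultures was 1.42 (1.03 to 1.99). Without the 156 sensitive cells of deposited cluster 12 that ratio was 1.36 (0.989 to 1.91), which includes 1. Its log2 value went from 0.19 to -0.06 when the 3 phases were given equal weight. FGFR3 had 0.717 CPM in sensitive cells alone, 0.776 in cocultured sensitive cells, 1.41 in cocultured resistant cells and 1.32 in resistant cells alone. The 2 sensitive populations overlapped in their intervals, as did the 2 resistant ones. Resistant cells held more FGFR3 in both settings, 1.84 times (1.42 to 2.42) between the monocultures and 1.82 times (1.36 to 2.48) within the coculture, and neither passed the threshold on the log2(CPM + 1) scale, at 0.44 for both, although both passed with 0.1 CPM added in place of 1 (log2 ratios of 0.80 and 0.79).

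FRS2, the adaptor that couples FGFRs to RAS, ran from its highest level in sensitive cells alone to its lowest in resistant cells alone. It had 37.2 CPM (36.0 to 38.5) in sensitive cells alone, 31.1 (29.8 to 32.4) in cocultured sensitive cells, 29.1 (28.4 to 29.9) in cocultured resistant cells and 20.4 (19.8 to 20.9) in resistant cells alone. The 2 cocultured populations were close, with a ratio of 0.938 (0.893 to 0.986), whereas the monocultures differed by a ratio of 0.547 (0.524 to 0.570, log2 ratio -0.84). Coculture over monoculture was 0.834 (0.791 to 0.880) in sensitive cells and 1.43 (1.38 to 1.49, log2 ratio 0.50) in resistant cells. The resistant ratio lay under the threshold and above 98.4% of all genes of that comparison.

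RET, the signalling kinase of the GDNF receptor, was higher in resistant cells. It had 2.99 CPM (2.66 to 3.36) in sensitive cells alone, 4.06 (3.61 to 4.56) in cocultured sensitive cells, 8.09 (7.70 to 8.50) in cocultured resistant cells and 8.96 (8.61 to 9.33) in resistant cells alone. The 2 lines did not overlap, and the cocultured populations lay between the monocultures. Resistant over sensitive cells gave 3.0 (2.65 to 3.4, log2 ratio 1.32) in monoculture and 1.99 (1.76 to 2.27, log2 ratio 0.85) in coculture. Coculture over monoculture gave 1.36 (1.15 to 1.60) in sensitive and 0.903 (0.848 to 0.962) in resistant cells, both under the threshold. With 7.57% of resistant-cell RNA taken off, RET in sensitive coculture was 3.73 CPM.

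GFRA1, which binds GDNF and presents it to RET, rested on 646 UMIs. Its level was 0.332 CPM (0.227 to 0.469) in sensitive cells alone, 0.592 (0.427 to 0.801) in cocultured sensitive cells, 0.842 (0.719 to 0.979) in cocultured resistant cells and 1.49 (1.35 to 1.64) in resistant cells alone. The 2 middle populations overlap in their intervals. Resistant over sensitive monoculture gave 4.49 (3.13 to 6.65, log2 ratio 0.90), with 404 against 32 UMIs, and the coculture gave 1.42 (1.01 to 2.04). In barcodes outside the deposited annotation the ratio between the monocultures was 2.39 (1.62 to 3.61, log2 ratio 0.53), under the threshold. The monoculture ratio of GFRA1 also missed the threshold with 10 CPM added in place of 1. Sensitive cells in coculture had 1.78 times the monoculture level (1.10 to 2.92), from 42 and 32 UMIs. Resistant cells in coculture had 0.564 times the monoculture level (0.469 to 0.677, log2 ratio -0.44), a value below that of all but 0.350% of the genes compared.

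Counted over the 7 genes, the monocultures differed in 5, beside 19.2% of all 12968 genes compared. FGFR4, RET and GFRA1 were higher in resistant cells (6.65% of all genes were higher) and FGFR1 and FRS2 were lower (12.5% of all genes). Within the coculture 3 were past the threshold, beside 6.12% of genes, with FGFR4 and RET higher in resistant cells (2.04% of genes) and FGFR1 lower (4.09%). Sensitive cells differed between coculture and monoculture in 1 gene, FGFR4, beside 11.0% of genes (5.91% of all were lower in coculture, like FGFR4, and 5.13% higher). Resistant cells differed in 0 genes of the 7, beside 0.692% of genes, with 0.661% higher and 0.0304% lower in coculture. The comparisons share populations and are not independent. Median log2 ratios over all genes were -0.07 between the monocultures, 0.00 within the coculture, -0.05 in sensitive and 0.03 in resistant cells. Scaling by TMM factors in place of total UMIs left these 4 counts of members as they were. With it, the share of called genes that were higher in resistant cells went from 34.7% to 48.4% between the monocultures, and the share higher in coculture went from 95.6% to 80.4% in resistant cells.

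**Figure D2:**
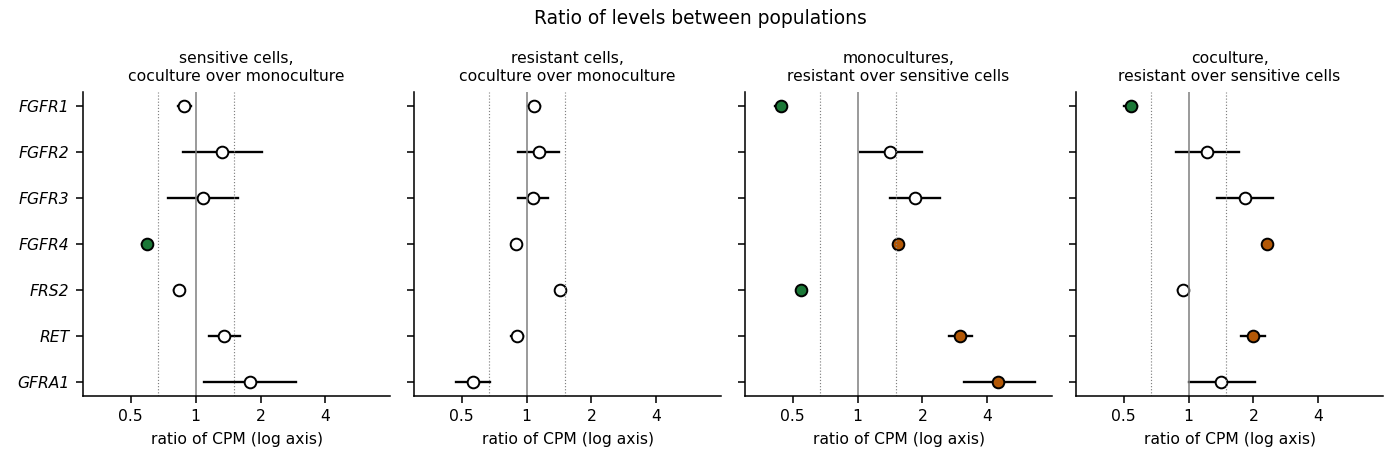
Ratio of CPM (log axis) of each gene in the 4 comparisons between populations, with exact 95% intervals as lines. Dotted lines mark 1.5-fold, and filled points passed it on the log2(CPM + 1) scale (brown higher, green lower), so that GFRA1 in resistant cells, at 0.564, is drawn unfilled.

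The share of cells with a UMI was compared next. At full depth a UMI of FGFR4 was found in 60.9% of sensitive cells alone and 54.4% in coculture, and in 78.9% of resistant cells in coculture and 84.5% alone. With each cell thinned to 10000 UMIs, which removed at most 3 cells of a population, the shares were 34.2%, 23.85%, 45.0% and 49.1%, the same order of populations as the CPM. Thinned shares for FRS2 were 31.4%, 26.9%, 24.3% and 18.2% in the same order, for FGFR1 17.6%, 16.6%, 9.62% and 8.19%, and for RET 3.1%, 4.08%, 7.41% and 8.50%. At full depth a UMI of FGFR1 was seen in 40.3% of the sensitive cells alone and 43.9% of those in coculture, an order that goes against the CPM. It was 17.6% and 16.6% after thinning to 10000 UMIs and 9.16% and 9.23% after thinning to 5000, with overlapping intervals at both depths. No cell type that lacks these genes was present to give a background share, so a single UMI may come from free RNA. FGFR2, FGFR3 and GFRA1 had a UMI in at most 4.59% of the cells of any population.

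**Figure D3:**
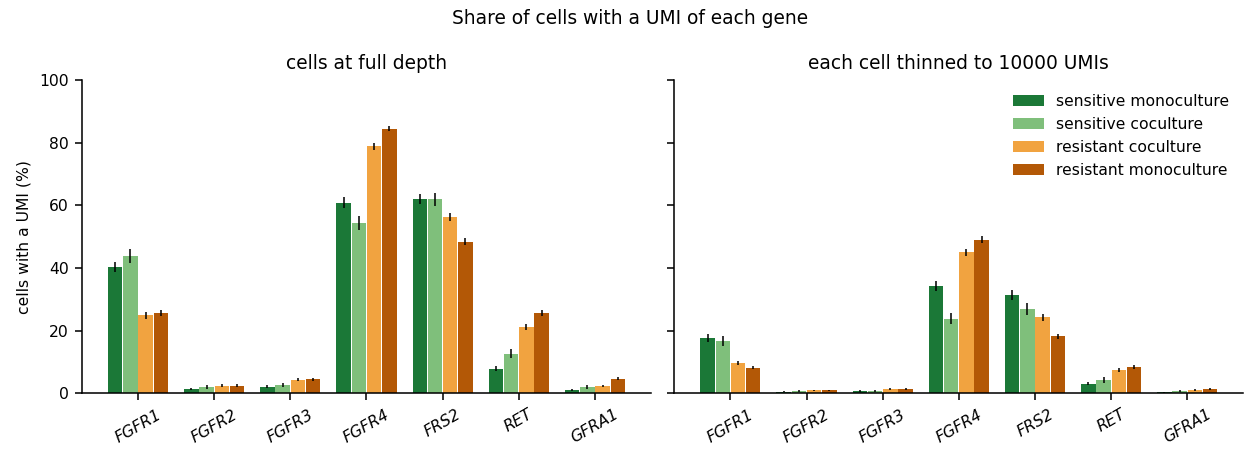
Percent of cells with at least 1 UMI of each gene (vertical axis, from 0) at full depth (left) and with each cell thinned to 10000 UMIs (right), by population, with exact 95% binomial intervals over cells of 1 library. FGFR4 runs from 23.85% to 49.1% and FRS2 from 18.2% to 31.4% after thinning.

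RET and its co-receptor were counted together in few cells. In resistant monoculture 84 of the 347 cells with a GFRA1 UMI also had one of RET, or 24.2%, beside 25.5% of all cells of that population. In resistant coculture the values were 18.2% and 21.2%. FGFR4 was found in 89.5% of the RET cells of resistant monoculture and in 84.5% of all its cells, and in resistant coculture in 85.4% and 78.9%. Cells with more UMIs in all are more likely to hold both. With each cell thinned to 10000 UMIs, FGFR4 was found in 53.0% of RET cells and 49.1% of all cells in resistant monoculture, and in 55.6% and 45.0% in resistant coculture. In sensitive cells the 2 shares were 32.04% and 34.19% alone, in the reverse order, and 32.14% and 23.85% in coculture. Thinned to 5000 UMIs, the shares in resistant coculture were 30.3% and 27.6%, and those in sensitive monoculture 17.4% and 21.1%, so the size and the order of the difference varied with population and depth. At 10000 UMIs RET was found in 11 of 108 GFRA1 cells of resistant monoculture, or 10.2%, beside 8.50% of all cells, and in 4 of 60 in resistant coculture, or 6.67%, beside 7.41%.

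The promoters of FGFR4, RET and GFRA1, the 3 members past the threshold as higher in resistant than in sensitive cells alone, are shown next, as the 250 bases before the first transcript start that the RefSeq table (GRCh38.p14) lists for each, so that members with a difference in the same direction can be compared at their start sites. Capitals mark the GC box GGGCGG on either strand, the letters bound by Sp1-type factors. Each sequence was found once, letter for letter, on its chromosome in GRCh37, and that of GFRA1 lies inside the GENCODE span of the gene, so its first start in RefSeq is not the first in that annotation and its window is not like those of FGFR4 and RET.
FGFR4 promoter, GRCh37 chr5:176513666-176513915, strand +: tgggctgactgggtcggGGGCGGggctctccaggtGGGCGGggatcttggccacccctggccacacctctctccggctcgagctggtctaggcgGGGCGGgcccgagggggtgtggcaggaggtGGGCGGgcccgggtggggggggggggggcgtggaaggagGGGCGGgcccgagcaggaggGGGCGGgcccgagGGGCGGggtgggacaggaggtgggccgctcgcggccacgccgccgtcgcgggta
RET promoter, GRCh37 chr10:43572267-43572516, strand +: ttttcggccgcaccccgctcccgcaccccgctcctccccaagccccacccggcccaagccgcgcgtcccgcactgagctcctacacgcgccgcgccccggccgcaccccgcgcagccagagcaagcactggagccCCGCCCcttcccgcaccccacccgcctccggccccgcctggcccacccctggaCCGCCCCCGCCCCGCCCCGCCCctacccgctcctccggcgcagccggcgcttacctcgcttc
GFRA1 promoter, GRCh37 chr10:118034218-118034467, strand -: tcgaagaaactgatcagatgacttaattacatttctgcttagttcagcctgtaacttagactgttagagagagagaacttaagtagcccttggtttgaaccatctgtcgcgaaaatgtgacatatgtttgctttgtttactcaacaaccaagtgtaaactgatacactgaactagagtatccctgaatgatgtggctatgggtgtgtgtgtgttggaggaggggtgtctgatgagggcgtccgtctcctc
FGFR4 held 7 GC boxes and RET held 5, of which the last 4 run into each other, and the GFRA1 window held 0, while 42.6% of all 35116 RefSeq promoter windows held at least 1. The counts depend on the start site, since the second window listed for FGFR4 held 0 and that for RET 1, and of the other 3 listed for GFRA1, 1 window held 1 box. FGFR4 and RET were both 79.6% G and C and GFRA1 43.2%, with a median of 58.0% over all windows. The estrogen response half-site GGTCA, searched on both strands, was in none of the 3 windows and in 32.6% of all. The AP-1 motif TGANTCA, searched the same way, was in none of the 3 and in 6.57% of all windows, and the forkhead motif TGTTTAC was in the GFRA1 window once, in neither of the others, and in 2.98% of all. These are matches of letters and not binding sites, other start sites are listed for each gene, and no promoter of FGFR1 was at hand.

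Across the cell cycle 0 members with enough UMIs passed the threshold in S or G2M over G1 in any population. Of all genes compared, 13.7% and 18.1% did so in sensitive monoculture (S first) and 7.77% and 8.91% in sensitive coculture. In resistant cells 5.62% and 7.05% did so in coculture and 5.56% and 7.07% in monoculture. FGFR2 and GFRA1 fell short of the UMI minimum in sensitive monoculture, as did FGFR2, FGFR3 and GFRA1 in sensitive coculture. FGFR2 in S over G1 of sensitive monoculture had a log2 ratio of 0.65, beyond 1.5-fold, and was barred by that minimum alone. With so few members per comparison, a count of 0 does not set them apart from all genes. The phase had been called by the authors from other genes of the same cells. FGFR4 was lower in G2M than in G1 in each population. It had 49.1 CPM in G1 and 35.8 in G2M of sensitive monoculture, 29.7 and 24.5 in sensitive coculture, 70.8 and 53.3 in resistant coculture, and 76.9 and 60.2 in resistant monoculture. The ratios, 0.729, 0.824, 0.753 and 0.783, all had intervals below 1, while those of S over G1 (0.952, 1.02, 0.992 and 1.02) all had intervals that included it. The share of all genes whose phase intervals exclude 1 is not given here. Such intervals, here and below, thus do not set a member apart from other genes.

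FRS2 was lowest in S phase. Its S over G1 ratio was 0.788 (0.679 to 0.910) in sensitive cells alone, 0.740 (0.662 to 0.826) in cocultured sensitive cells, 0.793 (0.743 to 0.846) in cocultured resistant cells and 0.825 (0.774 to 0.879) in resistant cells alone. RET was higher in S than in G1 in resistant cells, at 9.25 against 7.63 CPM in coculture (ratio 1.21, 1.08 to 1.36) and 10.6 against 8.25 in monoculture (1.29, 1.17 to 1.41). In sensitive cells the RET ratios were 1.15 and 1.25, with intervals that included 1. GFRA1 was higher in G2M than in G1 in resistant coculture (1.83, 1.27 to 2.64) and resistant monoculture (1.59, 1.24 to 2.03), from 63 and 117 G2M UMIs. FGFR3 was higher in S than in G1 in the same populations, at 1.42 (1.08 to 1.87) and 1.51 (1.18 to 1.92). For FGFR2, S over G1 was 2.94 (1.18 to 6.48) in sensitive monoculture and 2.56 (1.25 to 5.33) in sensitive coculture. Those ratios rested on 8 and 19 UMIs in S. In resistant cells it was 1.48 (1.04 to 2.09) alone and 1.21 (0.822 to 1.76) in coculture. Its G2M over G1 ratio was 1.55 (1.07 to 2.25) in resistant monoculture, and the other populations had intervals that included 1. FGFR1 in S over G1 was 0.733 (0.594 to 0.895) in sensitive monoculture and 1.16 (1.06 to 1.27) in resistant monoculture.

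The deposited clusters, used here by number because they were built from the same cells, were compared within each line. In sensitive monoculture FGFR4 was 50.7 CPM in cluster 4, the largest with 1945 cells, 29.4 in cluster 8, 25.3 in cluster 3, 40.9 in cluster 7 and 150 in the 156 cells of cluster 12. Cluster 12 held 12.7% of all FGFR4 UMIs of that population, and without it the sensitive ratio of coculture over monoculture was 0.656 (0.622 to 0.692, log2 ratio -0.59), just past the threshold. Within cluster 3, which held 1087 of the 2059 cocultured sensitive cells, FGFR4 was 25.9 CPM in coculture and 25.3 in monoculture, a ratio of 1.02 (0.881 to 1.19). In cluster 7, with 99.6% and 99.5% of its cells called S or G2M alone and in coculture, it was 25.3 against 40.9 CPM, a ratio of 0.618 (0.541 to 0.707), and in cluster 4 the ratio was 0.849 (0.694 to 1.03). The interval for FGFR4 thus lay below 1 in 1 of the 3 clusters that both populations share, and those clusters held different parts of each population, since cluster 4 took 1945 cells of the monoculture and 84 of the coculture. FRS2, lower in cocultured sensitive cells as a whole, had ratios of 1.14 (0.990 to 1.31) in cluster 3, 1.195 (0.984 to 1.44) in cluster 4 and 0.864 (0.750 to 0.998) in cluster 7. FGFR1 had 0.744 (0.638 to 0.871), 0.921 and 1.14 in the same clusters, and RET 1.40, 1.00 and 1.59 (1.01 to 2.60). For these 2 genes as well the interval excluded 1 in 1 of the 3 clusters, and GFRA1 had too few UMIs for a ratio.

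In resistant cells FRS2 was higher in coculture in 9 of 9 clusters, by ratios of 1.07 to 1.84, and the interval lay above 1 in 7 of them. The clusters are parts of the same 2 libraries and are not replicates. In the largest, cluster 0, it had 32.3 CPM in coculture and 22.7 in monoculture. GFRA1 was lower in coculture in 5 of 5 clusters with enough UMIs, by ratios of 0.397 to 0.681, with 4 intervals below 1. Most UMIs of those clusters came from the monoculture, such as 55 against 18 in cluster 6. In clusters with too few UMIs the GFRA1 ratios ran from 0.42 to 1.6, with intervals that included 1. RET was 0.868 to 0.983 times its monoculture level in 5 of 5 such clusters, with 1 interval below 1. Among clusters of resistant monoculture with at least 50 RET UMIs, RET ran from 11.5 CPM in cluster 1 to 3.82 in cluster 6. FGFR4 in the same clusters was 81.2 and 47.4 CPM.

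**Figure D4:**
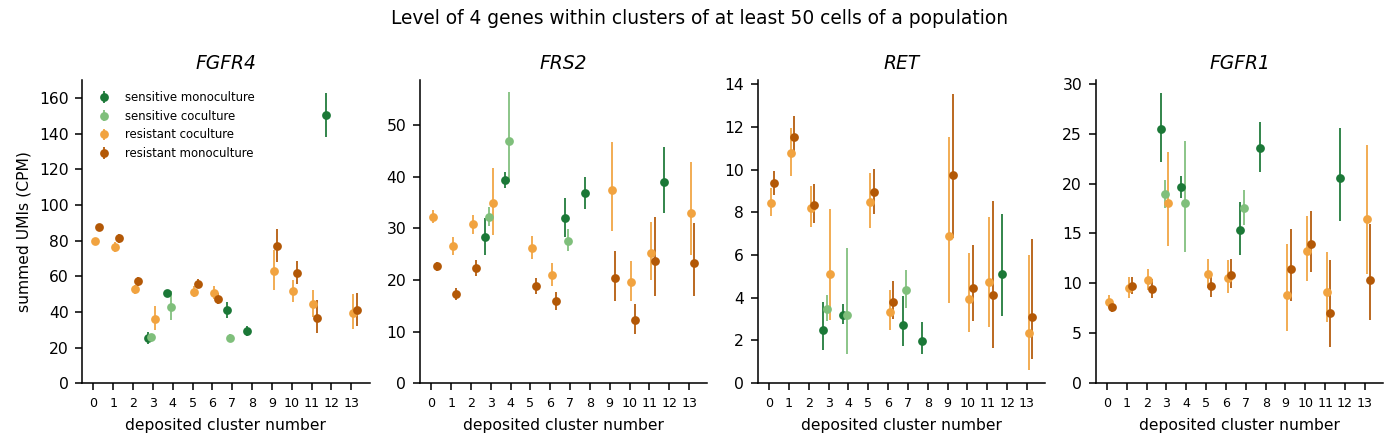
Level of FGFR4, FRS2, RET and FGFR1 (CPM, vertical axis from 0) in each deposited cluster (horizontal axis, by number) with at least 50 cells of a population, coloured by population, with exact 95% Poisson intervals. FGFR4 stands at 150 CPM in sensitive monoculture cluster 12, and FRS2 of resistant cells is higher in coculture in each cluster shown for both.

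Genes near the members on their chromosomes were compared with them. On GRCh37 the members lie at chr8:38257733-38326352 (FGFR1, minus strand), chr10:123237846-123357972 (FGFR2, minus), chr4:1795020-1810599 (FGFR3, plus), chr5:176513906-176525145 (FGFR4, plus), chr12:69864129-69973573 (FRS2, plus), chr10:43572512-43625799 (RET, plus) and chr10:117816436-118036315 (GFRA1, minus). No counted gene overlapped a member on its own strand. Within the coculture, FGFR4 lay above all 30 measured genes that start within 1 Mb of it, whose log2 ratios ran from -0.48 to 0.43, and in sensitive cells, coculture over monoculture, it lay just below the lowest of 29, both at -0.72. Between the monocultures, at 0.61, it lay above 28 of 30 and within their range, which reached 0.91. RET lay above all 9 such neighbours in the comparison of the monocultures, where they ran from -0.45 to 0.57 and RET had 1.32. FRS2 lay above all 13 in resistant cells, coculture over monoculture, which ran from -0.14 to 0.36. In these comparisons FGFR4 (within the coculture), RET and FRS2 also lay above 99.7%, 99.0% and 98.4% of all genes. A place above all neighbours therefore tells little about the region. Between the monocultures FRS2 passed the threshold at -0.84 and was within the range of its 12 neighbours, of which 3 lay lower, down to -1.33. Of the 12, 3 were past the threshold in the same direction and 0 in the other. FGFR1, at -1.10 between the monocultures, was within the range of its 18 neighbours, which reached -1.96. Of the 18, 3 were past the threshold in the same direction and 1 in the other. Beside both sets of neighbours, 12.5% of all genes were lower and 6.65% higher.

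Few ligand genes of either system had enough UMIs. The counts of list genes below stand beside 6.65% of all genes higher and 12.5% lower in resistant cells between the monocultures, and 5.13% higher and 5.91% lower in coculture in sensitive cells. Of 18 FGF ligand genes 3 reached 50 UMIs between the monocultures, with 2 higher and 1 lower in resistant cells. FGF18 was 2.77 CPM in sensitive cells alone, 0.748 in cocultured sensitive cells, 0.922 in cocultured resistant cells and 0.587 in resistant cells alone, and it was also the 1 ligand of 2 with enough UMIs that was lower in cocultured than monocultured sensitive cells. FGF9 had 0.125, 0.226, 1.12 and 1.15 CPM in the same order, and FGF22 0.925, 1.10, 1.57 and 1.94. Among 11 RET ligands and further co-receptors, 5 had enough UMIs. ARTN, a GDNF-family ligand, had 1.16, 2.19, 3.65 and 2.81 CPM. GDF15, a distant ligand of the system, had 19.7, 13.5, 7.26 and 9.11 CPM, and SORL1, a sorting receptor that binds GDNF and GFRA1, 9.74, 5.56, 4.85 and 3.76. Of these 5, 2 were higher and 2 lower in resistant than in sensitive cells alone, with a median of -0.04 that was 0.03 under TMM scaling, and 1 was lower in sensitive cells in coculture.

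Heparan sulfate carriers such as syndecans and glypicans hold FGFs near their receptors. Of 19 FGF co-receptors and binding proteins 11 had enough UMIs between the monocultures, and 1 was higher and 4 lower in resistant cells (6.65% and 12.5% of all genes), with a median log2 ratio of -0.29 beside -0.07 for all genes. The syndecan SDC2 had 14.4 CPM in sensitive cells alone, 7.63 in cocultured sensitive cells, 2.67 in cocultured resistant cells and 1.71 in resistant cells alone. The glypican GPC5 had 19.9, 9.76, 3.75 and 3.52 CPM in that order, and SDC3 7.03, 4.39, 3.17 and 2.58. In sensitive cells 4 of 11 were lower in coculture than in monoculture and 1, GPC6 (0.083 and 0.691 CPM), was higher, with a median of -0.42 beside -0.05. In the 3 intracellular FGF homologous factors with enough UMIs, 2 were lower in resistant monoculture, FGF13 at 0.391 against 2.09 CPM and FGF12 at 0.616 against 1.59, while FGF11 was 0.384 against 0.696.

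Of 34 adaptors and relay proteins that carry the signal of both receptor systems 32 had enough UMIs, and between the monocultures 1 was higher and 5 were lower in resistant cells, near the 6.65% and 12.5% of all genes, with a median of -0.20 beside -0.07. The largest differences were in PIK3R1 (12.2 against 24.3 CPM in sensitive monoculture), PIK3CA (7.44 against 13.2) and STAT3 (41.4 against 69.2). In sensitive cells 1 of the 32, the docking protein DOK1 (1.04 in coculture and 0.333 CPM in monoculture), passed the threshold, and SOS2, an exchange factor for RAS, had 3.98 against 6.35 CPM. Of 16 feedback and target genes of the pathway, 12 had enough UMIs between the monocultures, of which 0 were higher and 6 lower in resistant cells (6.65% and 12.5% of all genes), with a median of -0.54 beside -0.07. DUSP6, a phosphatase of ERK, had 4.88 CPM in sensitive cells alone, 1.88 in cocultured sensitive cells, 0.952 in cocultured resistant cells and 0.506 in resistant cells alone. PHLDA1 had 3.69, 3.99, 0.937 and 0.882 CPM, and SPRY1, an inhibitor of receptor kinase signalling, 2.67, 1.83, 1.95 and 1.06. In sensitive cells 2 of 9 were lower in coculture, DUSP6 and DUSP5 (7.48 against 13.5 CPM), and SPRED2 had 6.40 against 9.53. Resistant cells had no gene of these lists past the threshold between coculture and monoculture, where 0.692% of all genes were past it.

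Of 53 other receptor tyrosine kinases, 26 had enough UMIs between the monocultures, with 2 higher and 5 lower in resistant cells, near the 6.65% and 12.5% of all genes, and of the 5 receptor kinases among the members FGFR4 and RET were higher and FGFR1 was lower. No kinase of that list with a higher level in resistant cells reached the log2 ratio of RET. The list's largest differences were in NTRK2 (0.089 against 0.842 CPM), DDR2 (1.55 against 0.509) and FLT3 (0.148 against 0.904). In sensitive cells, coculture over monoculture, 2 of 23 were lower and 0 higher, with a median of -0.23. LMTK3 had 85.2 CPM in coculture and 173 in monoculture, ERBB2 31.2 and 47.9, and NTRK2 0.268 and 0.842.

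**Figure D5:**
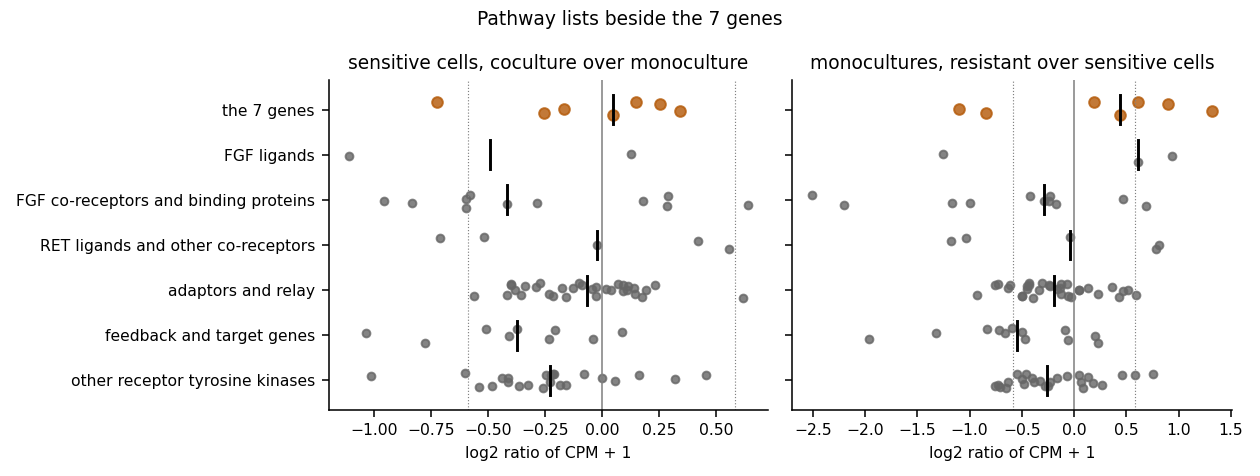
Log2 ratios of CPM + 1 (horizontal axis) in sensitive cells, coculture over monoculture (left), and between the monocultures, resistant over sensitive (right), of the 7 genes (brown) and of the genes of 6 pathway lists with at least 50 UMIs (grey, 1 point per gene), with black bars at the medians and dotted lines at 1.5-fold. The feedback and target genes have a median of -0.54 between the monocultures.

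Over the 12 groups of population and phase, the genes most like each member were sought among 6772 genes whose mean reached 10 CPM, by Pearson's r of log2(CPM + 1). The 12 groups come from 3 libraries, so these values describe the pattern and were not tested. Most like FGFR4 were PPP1R3D (r = 0.98), CAP2 and ACOT4 (0.97 each), and least like it ATP5IF1, PRMT2 (-0.97 and -0.96) and PEG10 (-0.96). Most like RET were MTG2 (0.98), TPBG and FKBP2 (0.97 each), and least like it BORCS7 (-0.98) and MCM3AP (-0.97). For FGFR1 they were MICAL3, HADHA and MFSD5 (0.97 each) against MDK (-0.98), NME4 and MHENCR (-0.97 each). For FRS2 they were SKIL (0.98), TAF13 and NPTN (0.97 each) against MICA (-0.97), NAPRT and GAMT (-0.96 each). For GFRA1 they were KLC3 (0.96), CUEDC2 and RPUSD3 (0.95 each) against EAF1, SLC2A11 and SOWAHC (all -0.95). FGFR3 came nearest to TRIR (0.92), EEF1A2 and MAP3K20 (0.91 each) and farthest from FBXO6 (-0.91), SOX4 and HDAC7 (-0.90 each), and FGFR2 nearest to GGA2 (0.91), TCF19 (0.90) and POLR3F (0.89) and farthest from PYGB (-0.90), LAMB2 (-0.88) and DYRK1B (-0.87). Among the members, RET had r = 0.77 with GFRA1, 0.74 with FGFR4 and -0.88 with FGFR1, and FGFR1 had r = -0.81 with FGFR4. FGFR2, FGFR3 and GFRA1 had groups with as few as 6, 7 and 1 UMIs, so their r values rest on few counts. Several of the named genes changed rank under TMM scaling.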

How the data were processed

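Single-cell RNA-seq of 3 libraries of CAMA-1 spheroids (sensitive cells alone, coculture, resistant cells alone) was analysed. The deposited count tables hold UMI counts per gene and cell barcode, made by the authors from 10x Genomics 3′ v3 libraries with Cell Ranger 3.0.2 on GRCh37, per the submitters' processing notes. The deposited cell annotation gives the authors' population, cluster and phase for each cell, their S and G2M scores from cell-cycle genes, and the percent of UMIs on mitochondrial genes. Cells had been viably frozen before capture. The stated limits of 3000 to 7000 genes, 2000 to 60000 UMIs and under 30% mitochondrial UMIs left 3329, 12346 and 7557 of 8643, 20227 and 11502 barcodes. Of the 12346, 8351 carried a population and entered, each with a UMI of 1 label only. The annotation held cells with fewer than 2 UMIs of the label transgenes, which were kept (1314 of 3329 sensitive cells alone had 2 or more).

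Counts of a population or phase were summed and scaled to CPM over named genes, with rows lacking a symbol (0.523% to 0.591% of UMIs) left out. Level intervals are exact 95% Poisson intervals, ratio intervals exact conditional binomial intervals, and share intervals Clopper-Pearson intervals. There was 1 library per condition, so cells were not taken as replicates and no test was made. This differs from the study, which tested over cells. Totals on named genes ran from 70896822 to 270891547 UMIs per population. Doublets were scored with Scrublet (scanpy 1.11.5), and 55 to 267 cells per population scored over 0.25 and were kept. The share of resistant-cell RNA used in 1 alternative came from 186 mCherry UMIs in 1263 coculture barcodes with 2 or more mVenus UMIs. Python 3.11.15, numpy 2.4.6, scipy 1.17.1, R 4.3.3 and edgeR 4.0.16 (TMM factors only) were used, and the calculations were tested on simulated counts. Coordinates follow GENCODE lifted to GRCh37, and the 8 remaining annotation columns were not used.

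The 7 genes and the pathway lists were chosen with earlier results of these data known. Named besides them are, from each list, the 3 genes with the largest absolute log2 ratio in sensitive cells and between the monocultures, and for each member the 3 genes with the highest and the lowest r, of which 1 is not reported here. Alternatives were other pseudocounts, UMI minimums, scaling, thinning, cell filters, phase weights and the correction for resistant-cell RNA. Totals without mitochondrial genes, barcodes outside the annotation and sensitive cells without cluster 12 were added after the data were seen.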

Additional observations from a re-analysis of the deposited data

Results flagged for a closer look

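For 4 of the 7 genes the interval of the ratio of coculture over monoculture lay on opposite sides of 1 in the 2 lines, and the difference between the lines was not tested, since there was 1 library per condition. The ratio of FGFR1 was 0.886 in sensitive and 1.08 in resistant cells. Under TMM scaling its resistant ratio was 1.03 (0.971 to 1.09), which includes 1, and within the deposited clusters 0 of 7 intervals of resistant cells lay above 1, so that 3 of the 4 genes had opposite sides under both scalings. That of FRS2 was 0.834 and 1.43. Within deposited clusters FRS2 of sensitive cells had 1.14 in cluster 3, 1.195 in cluster 4 and 0.864 in cluster 7, so that the lower value of all sensitive cells was not seen in 2 of the 3 shared clusters. RET, at 1.36 and 0.903, and GFRA1, at 1.78 and 0.564, had the reverse order. The sensitive GFRA1 ratio (1.10 to 2.92) rested on 42 and 32 UMIs. Within deposited clusters, the RET interval lay above 1 in 1 of 3 for sensitive cells and below 1 in 1 of 5 for resistant cells. Of all 12244 genes compared, 2674, or 21.8%, had intervals on opposite sides, 13.8% lower in sensitive and higher in resistant cells and 8.0% the reverse, and with TMM factors 20.8% did. Both ratios take their coculture cells from 1 library. With 7.57% of resistant-cell RNA taken off the cocultured sensitive cells, RET had 3.73 CPM and GFRA1 0.572 there, against 2.99 and 0.332 in sensitive cells alone. No value was corrected for sensitive-cell RNA in cocultured resistant cells, whose share was not estimated.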

How the results depend on the processing

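No paired analysis was possible because each condition had 1 library. Of 599 ratios of members under the alternatives, 51 fell outside the counting interval of the value reported. The sign was opposite in 10, none of them for a ratio past the threshold. The 599 include 74 ratios with a minimum of 20 UMIs, 25 with 200 UMIs and 28 with no minimum. A minimum leaves the value of a ratio as it was, so these could not move. A change of pseudocount cannot turn a sign. With a pseudocount of 0.1 CPM, which lets genes of low level pass, the count of members past the threshold was 2 in sensitive cells between coculture and monoculture (beside 17.0% of genes) and 1 in resistant cells (beside 2.65%), GFRA1 being added in both. It was 6 between the monocultures (beside 28.4%) and 4 within the coculture (beside 11.7%), FGFR3 being added in both. It was 1 in S over G1 of sensitive cells alone (FGFR3, beside 19.4%), and 1 in G2M over G1 of cocultured resistant cells (beside 11.7%) and of resistant cells alone (beside 12.3%), GFRA1 in both. With a pseudocount of 10 CPM it was 2 between the monocultures (FGFR1 and FRS2, beside 6.81%) and 1 within the coculture (FGFR4, beside 1.36%). With a minimum of 20 UMIs it was 1 in S over G1 of sensitive cells alone (beside 13.1%), FGFR2, from 8 UMIs in S. FGFR4 between the monocultures had log2 ratios of 0.49 to 0.57 and missed the threshold with a pseudocount of 10 CPM, means over cells, cells with 2 or more transgene UMIs, cells thinned to 5000 UMIs, totals without mitochondrial genes and barcodes outside the annotation. Its log2 ratio in sensitive cells ran from -0.88 to -0.59 over all alternatives and was past the threshold in each. TMM scaling moved the share of called genes higher in G2M from 52.7% to 40.3% in sensitive and from 83.2% to 71.2% in resistant cells alone. Thinning lowered 56 of 56 shares of cells, which was fixed in advance, since it only takes UMIs away. Under TMM scaling the r of the genes named as most and least like the members ran from 0.80 to 0.99 and from -0.97 to -0.77. Ranks changed as well. From the lowest end, SLC2A11 went from 2 to 197 for GFRA1, FBXO6 from 1 to 72 for FGFR3 and MICA from 1 to 42 for FRS2. POLR3F went from 3 to 106 among those most like FGFR2. PPP1R3D, SKIL and MTG2 stayed first for FGFR4, FRS2 and RET.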

Other observations

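Barcodes outside the deposited annotation gave a further look at the members between the monocultures, from 5314 barcodes of the sensitive and 3945 of the resistant library. The ratio of resistant over sensitive barcodes was 0.377 for FGFR1, 2.0 for FGFR2, 2.0 for FGFR3, 1.49 for FGFR4, 0.631 for FRS2, 2.70 for RET and 2.39 for GFRA1. All 7 lay on the same side of 1 as among annotated cells. Among annotated cells, the log2 ratio of FGFR2 turned to -0.06 with equal weight for the 3 phases. Past the threshold were 4 of the 7, FGFR1, FGFR3, FRS2 and RET, beside 32.1% of all genes in these barcodes. These barcodes come from the same libraries and failed the cell limits, so they are not replicates.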
